A study of Arabidopsis thaliana with 4 samples.

Results

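Glucosinolates are sulfur-containing defence compounds of the cabbage order, and they are broken down by myrosinases once tissue damage brings enzyme and substrate together. The unstable product rearranges to an isothiocyanate, which deters many herbivores, unless specifier proteins direct it to a nitrile or an epithionitrile. *ESM1*, the epithiospecifier modifier, represses nitrile formation and favours isothiocyanates in *Arabidopsis thaliana*. The 10 genes described here are *ESM1*, the leaf myrosinases *TGG1* and *TGG2*, the epithiospecifier *ESP*, the nitrile-specifier genes *NSP1*, *NSP3* and *NSP5*, and the lipase-like genes *MVP1*, *GLL23* and *GLL22*, which are related to *ESM1* in sequence. They are 10 of the 36632 gene rows in the counts and were picked by gene identifier. *ESM1* was chosen from a list that the study made by comparing *jmj26* with Col-0 in these plants, so the difference between the genotypes is given for all 10 genes as a description, and the counts of calls that include them support nothing.

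RNA-seq was performed on whole rosettes at the stage of 9 leaves, grown at 21°C with 16 h of light after stratification for 2 days at 4°C. There were 2 libraries of *jmj26*, a single T-DNA insertion line in the jumonji histone demethylase gene *JMJ26*, and 2 libraries of the wild type Col-0. By the study's methods rosettes were collected one by one, but neither they nor the labels say what each RNA-seq replicate was made from, so p-values measure only the spread between these libraries. The targeted gene *JMJ26* (AT1G11950) had 0 and 2 counts in *jmj26* and 1 and 0 counts in Col-0, which are too few to check the genotype labels.

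All 10 genes are protein-coding, and every position below is that of the TAIR10.1 assembly. *ESM1* (AT3G14210) lies on the plus strand of chromosome 3 from 4729399 to 4731847. *TGG1* (AT5G26000, 9079452 to 9082384, minus strand) and *TGG2* (AT5G25980, 9072708 to 9075777, plus strand) lie 3674 bases apart on chromosome 5 with their 3′ ends facing each other. *ESP* (AT1G54040, 20170715 to 20173949, minus strand) is 1030 bases from *MVP1* (AT1G54030, 20167597 to 20169684, plus strand) on chromosome 1. *GLL23* (AT1G54010, 20158589 to 20160864) and *GLL22* (AT1G54000, 20154154 to 20156520) follow on the minus strand in the same cluster. *NSP3* (AT3G16390, 5562400 to 5564574) and *NSP1* (AT3G16400, 5566083 to 5568545) are tandem neighbours on the plus strand of chromosome 3, whereas *NSP5* (AT5G48180, 19540937 to 19542760, minus strand) lies far from the myrosinases on chromosome 5.

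The lipase-like genes carry a block named after its glycine, aspartate, serine and leucine, in which the serine is catalytic in active enzymes of the family. The 30 coding bases around it show how *ESM1* relates to the 3 genes of the chromosome 1 cluster, with the codon at the serine position in capitals.
ESM1: ttcactttcggagacTCTtactacgacgcc
MVP1: tttgtgttcggagatGGTctttacgacgcc
GLL23: ttcacctttggtgacTCCaacttcgacgcc
GLL22: ttcacctttggtgacTCCaacttcgacgcc
The stretches lie at chr3:4729997-4730026 (plus strand), chr1:20167844-20167873 (plus strand), chr1:20160607-20160636 (minus strand) and chr1:20156225-20156254 (minus strand), each inside 1 coding exon. The capitals encode serine in *ESM1*, *GLL23* and *GLL22*. Against *ESM1*, *MVP1* has the change S43G, with residues counted from the first methionine of *ESM1*. Over the aligned coding sequence *ESM1* shared 74.9% of its bases with *GLL23*, 74.0% with *GLL22* and 60.5% with *MVP1*.

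The counts come from alignments that kept reads with multiple hits, so near-identical genes can exchange counts. The longest run of bases that the coding sequences of *TGG1* and *TGG2* have in common is 55 bases, at chr5:9080589-9080643 in *TGG1* and chr5:9074509-9074563 in *TGG2*. *NSP1* and *NSP3* have 68 bases in common, at chr3:5568232-5568299 and chr3:5564258-5564325. Both stretches are given on the coding strand, and a read that lies wholly inside one cannot tell its pair apart.
TGG1 and TGG2: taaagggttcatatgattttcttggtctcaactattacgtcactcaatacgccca
NSP1 and NSP3: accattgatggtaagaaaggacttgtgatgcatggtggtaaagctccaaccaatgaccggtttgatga
Coding identity was 82.6% between *TGG1* and *TGG2*, 92.2% between *NSP1* and *NSP3* and 92.3% between *GLL23* and *GLL22*, whose longest common run is 85 bases. *ESM1* shared no run longer than 21 bases with any of its 3 relatives, and *ESP* none longer than 15 bases with the *NSP* genes. How many reads lie wholly inside such stretches was not tested. The split of counts within the *TGG* and the *NSP1* and *NSP3* pairs is therefore taken as uncertain.

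The depth and the strand of the counts bear on all 10 genes. The total count was 1998601 and 1497105 in *jmj26* and 1022041 and 740909 in Col-0. The library kit keeps the strand of the transcript, and the strand setting of the counting is not given in the sources used here. Genes that overlap an annotated gene on the other strand made up 24.9% of the gene rows and held 92.4% and 92.5% of the gene counts in *jmj26* and 95.7% and 94.5% in Col-0. None of the 10 genes overlaps such a gene, so their counts may be reads from the strand opposite to their own transcripts. A floor of 3 counts, the fewest taken as detected, was 1.87 and 2.52 CPM (counts per 1000000 counts of the tested gene rows, after TMM scaling) in *jmj26*, and 3.71 and 5.29 CPM in Col-0. Intervals and floors cover counting error only.

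*ESM1* had 58 and 62 counts in *jmj26*, which is 36.1 and 52.2 CPM, against 20 and 12 counts in Col-0, which is 24.7 and 21.2 CPM. Both *jmj26* libraries were above both Col-0 libraries, although the 95% Poisson interval of *jmj26* replicate 1 (27.4 to 46.7 CPM) overlapped those of Col-0 (15.1 to 38.2 and 10.9 to 37.0 CPM). The mean was 44.1 ± 11.4 CPM in *jmj26* and 22.9 ± 2.50 CPM in Col-0 (SD, n = 2 each), and the fitted log2 fold change was 0.91 (standard error 0.31). *ESM1* was the only one of the 10 genes with at least 10 counts in every library. The log2 fold change was 0.57 without *jmj26* replicate 2 and 1.13 without *jmj26* replicate 1. The alignment named in the file header of *jmj26* replicate 2 carries another leading number than those of the other 3 libraries, and what the number stands for is not stated.

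The rows of *MVP1*, *GLL23* and *GLL22* were at or under the floor. *MVP1*, also known for its part in the organisation of the endomembrane system, had 3 and 1 counts in *jmj26* and 1 and 1 in Col-0. *GLL23* had 0 and 0 counts in *jmj26* and 0 and 1 in Col-0. *GLL22* had 0 counts in all 4 libraries, which as a one-sided 95% limit of 3 counts allows up to 1.87 and 2.52 CPM in *jmj26* and up to 3.71 and 5.29 CPM in Col-0. A difference between the genotypes was not detectable for these genes at this depth, and none of them was tested.

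The myrosinase rows had the highest levels of the 10 genes in *jmj26*, and their Col-0 libraries lay far apart. *TGG1* had 179 and 141 counts in *jmj26*, which is 111 and 119 CPM, against 8 and 26 counts in Col-0, which is 9.88 and 45.9 CPM. The 2 *jmj26* libraries were close to each other, while Col-0 replicate 2 was 4.64 times as high as Col-0 replicate 1. The lower *jmj26* library was 2.43 times as high as the higher Col-0 library, and the fitted log2 fold change was 2.15 (standard error 0.48). *TGG2* had 108 and 84 counts in *jmj26* (67.2 and 70.7 CPM), against 9 and 21 counts in Col-0 (11.1 and 37.0 CPM). Its lower *jmj26* library was 1.81 times as high as the higher Col-0 library, and its fitted log2 fold change was 1.61 (standard error 0.43). Both fold changes depended on which Col-0 library was kept. On the log2 scale that of *TGG1* was 1.20 without Col-0 replicate 1 and 3.43 without Col-0 replicate 2, and that of *TGG2* was 0.77 without replicate 1 and 2.53 without replicate 2.

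The share of *TGG1* in the *TGG1* and *TGG2* counts was lower in both Col-0 libraries than in both *jmj26* libraries, on few counts in Col-0. It was 62.4% (95% Wilson interval 56.6 to 67.8, of 287 counts) and 62.7% (56.2 to 68.7, of 225) in *jmj26*, and 47.1% (26.2 to 69.0, of 17) and 55.3% (41.2 to 68.6, of 47) in Col-0. All 4 intervals overlap, so a different balance of the 2 myrosinases was not detectable. The share of *ESM1* in the *ESM1* and *TGG1* counts was less even. It was 24.5% (19.4 to 30.3) and 30.5% (24.6 to 37.2) in *jmj26*, and 71.4% (52.9 to 84.7) and 31.6% (19.1 to 47.5) in Col-0, where only replicate 1 stood apart.

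Among the specifier genes *ESP* was the highest. Its product yields nitriles and, from glucosinolates with a terminal double bond, epithionitriles. *ESP* had 31 and 19 counts in *jmj26* (19.3 and 16.0 CPM), against 11 and 8 counts in Col-0 (13.6 and 14.1 CPM). The libraries did not overlap between the genotypes, but the lower *jmj26* library was only 1.13 times as high as the higher Col-0 library, and the fitted log2 fold change of 0.36 was close to its standard error of 0.34. *NSP1*, a nitrile-specifier gene of leaves, had 21 and 15 counts in *jmj26* (13.1 and 12.6 CPM), against 2 and 5 counts in Col-0 (2.47 and 8.82 CPM). Its fitted log2 fold change was 1.31 (standard error 0.56), and it was 0.41 without Col-0 replicate 1 and 2.24 without Col-0 replicate 2. *NSP3* had 3 and 1 counts in *jmj26* and 1 and 1 in Col-0, and *NSP5* had 3 and 3 in *jmj26* and 0 and 1 in Col-0, so both stayed at or under the floor.

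**Figure D1:**
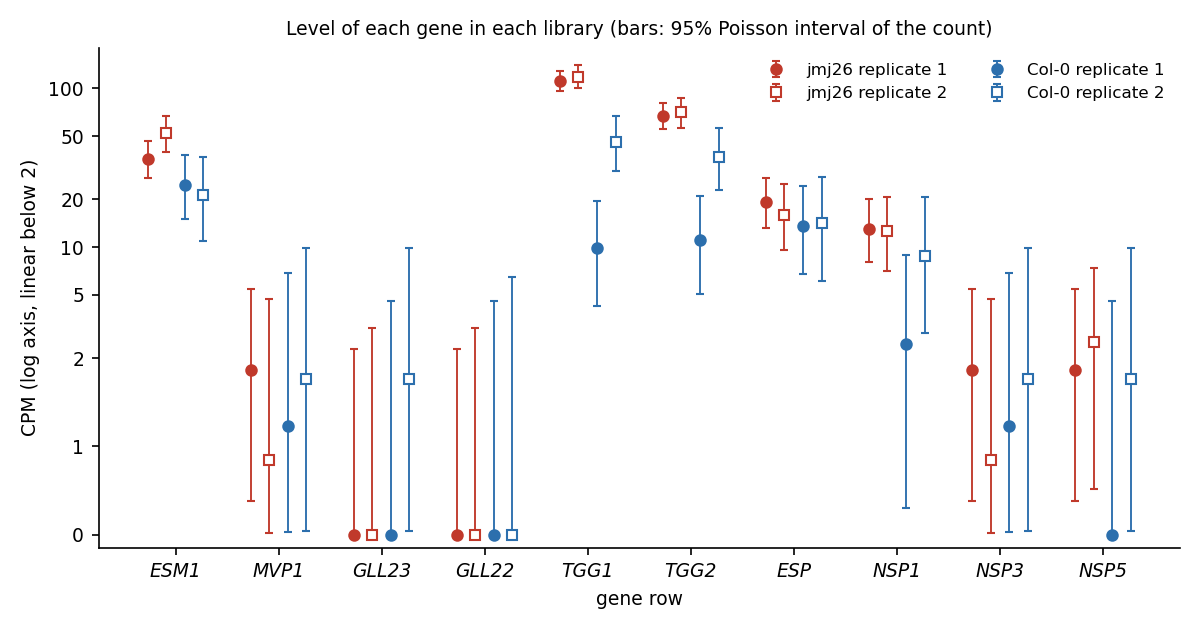
Level of each of the 10 genes (CPM, log axis that is linear below 2) in the 2 *jmj26* libraries (red) and the 2 Col-0 libraries (blue), with bars for the 95% Poisson interval of the count. *TGG1* lies at 111 and 119 CPM in *jmj26* and at 9.88 and 45.9 CPM in Col-0, while *MVP1*, *GLL23*, *GLL22*, *NSP3* and *NSP5* have 3 counts or fewer in every library.

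Levels were compared between genes per kilobase of exon. In both *jmj26* libraries the order was *TGG1* (58.9 and 62.7 CPM per kb), *TGG2* (34.1 and 35.9), *ESM1* (18.5 and 26.7), *ESP* (10.4 and 8.61) and *NSP1* (6.34 and 6.12), and the ranges of neighbours did not overlap. The Col-0 libraries disagreed on the order. In Col-0 replicate 1 *ESM1* was first with 12.7 CPM per kb, ahead of *ESP* with 7.32, *TGG2* with 5.64, *TGG1* with 5.22 and *NSP1* with 1.20. In Col-0 replicate 2 *TGG1* was first with 24.2 CPM per kb, ahead of *TGG2* with 18.8, *ESM1* with 10.9, *ESP* with 7.60 and *NSP1* with 4.28. Neither myrosinase thus differed from *ESM1* beyond the spread of the Col-0 libraries. Summed over the 10 genes there were 406 and 326 counts in *jmj26* and 52 and 76 in Col-0, and *TGG1* and *TGG2* supplied 70.7% and 69.0% of them in *jmj26* and 32.7% and 61.8% in Col-0.

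The 10 genes were next set against all gene rows. Of the 10, 5 passed edgeR's filter on low counts, among 5232 gene rows that did (*ESM1*, *TGG1*, *TGG2*, *ESP* and *NSP1*). *NSP1* had neither Col-0 library over the filter, so it had to be higher in *jmj26* to be tested, and *TGG1* had 1. *ESM1*, *TGG2* and *ESP* had both. With edgeR's quasi-likelihood test and Benjamini-Hochberg adjustment over all 5232 rows, 0 of the 5 genes had FDR < 0.05, against 0.0573% of all rows. At an unadjusted p below 0.05 there were 3 of the 5, against 13.6% of all rows called higher in *jmj26*, and DESeq2's Wald test also gave 0 with FDR < 0.05. In all 5 genes both *jmj26* libraries were above both Col-0 libraries, as in 26.8% of all rows tested and 51.7% of the 1343 rows without a gene on the opposite strand. Because the genes were picked with this contrast known, nothing is read from these counts.

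The comparison depends on which rows stand for the rest. The median log2 fold change was 1.31 over the 5 genes, 0.013 over all rows, and 0.61 over the 1343 rows without a gene on the opposite strand. The 1.31 is the value of *NSP1*, which had to be higher in *jmj26* to be tested. Over the 3 genes with both Col-0 libraries over the filter (*ESM1*, *TGG2* and *ESP*) the median was 0.91. Of those 1343 rows, 41.9% lay in a lower range between -0.5 and 0.5 and 29.2% in an upper range between 1.3 and 2.3. The rest lay between or beyond these ranges, whose bounds serve description only. Of the 3889 rows with a gene on the opposite strand, 85.1% lay between -0.5 and 0.5. By their fitted values *TGG1* and *TGG2* were in the upper range, *NSP1* (1.31) at its lower edge and *ESP* in the lower range. *ESM1* was in the gap between the ranges, from 0.5 to 1.3, which held 15.3% of the rows. Standard errors ran from 0.31 (*ESM1*) to 0.56 (*NSP1*) in edgeR. In DESeq2 they were larger, at 0.58 for *ESM1*, 0.57 for *TGG1*, 0.60 for *TGG2*, 0.80 for *ESP* and 1.12 for *NSP1*. Single genes are therefore not firmly placed in a range. Among the 1343 rows, 140 had a larger log2 fold change than *TGG1*, 388 than *TGG2*, 494 than *NSP1*, 599 than *ESM1* and 748 than *ESP*. Of these rows 642 had both *jmj26* libraries but not both Col-0 libraries over the filter, and the 605 with both Col-0 libraries over it had a median of -0.062. With at least 10 counts in every library, the log2 fold change of *ESM1* was 0.97 (standard error 0.30), and 43 of 407 rows without an opposite gene were above it. When only rows without an opposite gene were fitted, with a scaling of their own, the log2 fold changes were 0.45 for *ESM1*, 1.69 for *TGG1*, 1.14 for *TGG2*, 0.84 for *NSP1* and -0.12 for *ESP*.

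**Figure D2:**
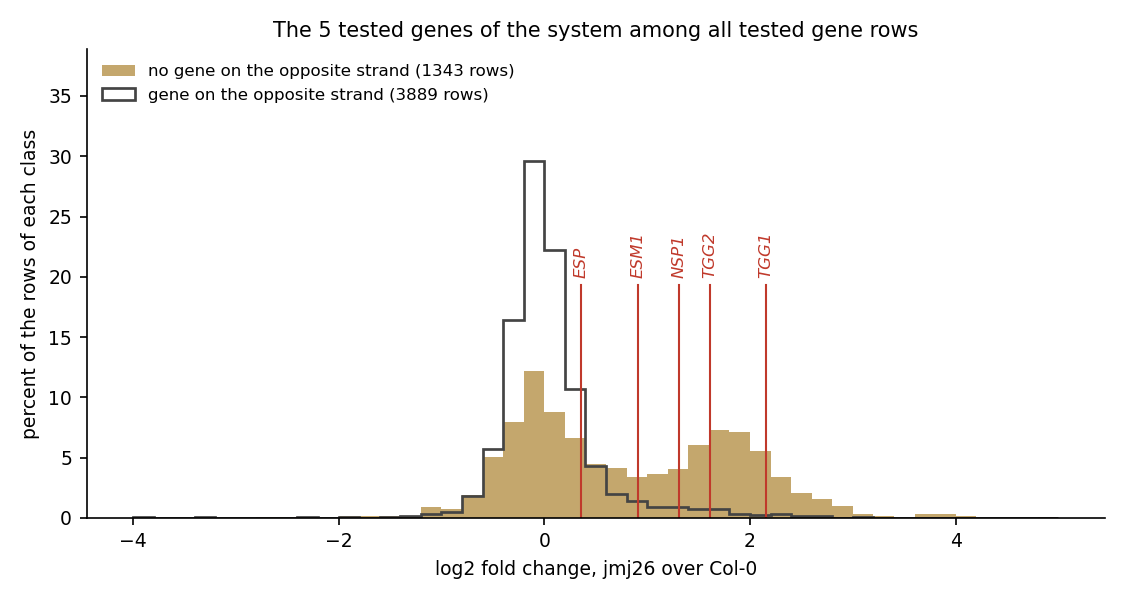
Distribution of the log2 fold change of *jmj26* over Col-0 as the percent of rows in bins of width 0.2, for the 1343 tested rows without a gene on the opposite strand (filled) and the 3889 with one (outline), where values beyond the axis stand in the outermost bins. Red lines mark the 5 tested genes. *TGG1* (2.15) and *TGG2* (1.61) lie in the upper hump of the filled distribution, *NSP1* (1.31) at its lower edge and *ESP* (0.36) in the lower hump.

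The level of leaf genes as a sum ordered the Col-0 libraries as the myrosinases did, but not the *jmj26* libraries. The summed level of 8 leaf mesophyll markers, among them *RBCS1A* for a Rubisco small subunit, was 1289 and 1215 CPM in *jmj26* and 322 and 684 CPM in Col-0. Of the 8, 7 were higher in both *jmj26* libraries than in both Col-0 libraries. The median log2 fold change was 1.07 over the 7 tested. The rows of *RCA*, *CAB1* and *GOX1* overlap a gene on the opposite strand. *RCA*, for Rubisco activase, alone had 509 and 483 CPM in *jmj26* and 71.7 and 228 CPM in Col-0. The share of gene counts in rows without an opposite gene was 7.64% and 7.55% in *jmj26* and 4.31% and 5.47% in Col-0. In each of these measures, as in *TGG1*, *TGG2* and *NSP1*, Col-0 replicate 1 was the lowest library and Col-0 replicate 2 the next. *ESM1* did not follow this order, being lower in Col-0 replicate 2 than in replicate 1, as were 2 of the 8 leaf markers, *RBCS3B* and *GOX1*. The part of these shifts in the values of the 10 genes was not tested, and fewer cells of a type cannot be told apart from less RNA per cell in whole rosettes.

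*TGG1* and *TGG2* are expressed in myrosin cells and guard cells, so markers of these cells were examined too. The summed level of 5 such markers was 67.2 and 58.9 CPM in *jmj26* and 61.8 and 70.6 CPM in Col-0, most of it from the anion channel gene *SLAC1*, whose row overlaps a gene on the opposite strand. *FAMA*, which specifies both cell types, had 5 and 0 counts in *jmj26* and 1 and 4 in Col-0, and the kinase gene *HT1* had none. The channel gene *KAT1* had 6 and 5 counts in *jmj26* and 1 and 2 in Col-0. The transcription factor gene *MYB60* had 7 and 4 counts in *jmj26* and 3 and 1 in Col-0. In CPM only *KAT1* of the 5 had both *jmj26* libraries above both Col-0 libraries, with its Col-0 counts under the floor. Of 6 flower and seed markers, 4 (*AG*, *AP3*, *PI* and *CRU3*) had 0 counts in all libraries and the summed level was at most 4.21 CPM in *jmj26* and 4.94 CPM in Col-0. Of 3 root genes, the myrosinases *TGG4* and *TGG5* had 0 counts throughout, and *BGLU23*, whose row overlaps a gene on the opposite strand, had 93.4 and 106 CPM in *jmj26* and 66.7 and 91.7 CPM in Col-0.

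**Figure D3:**
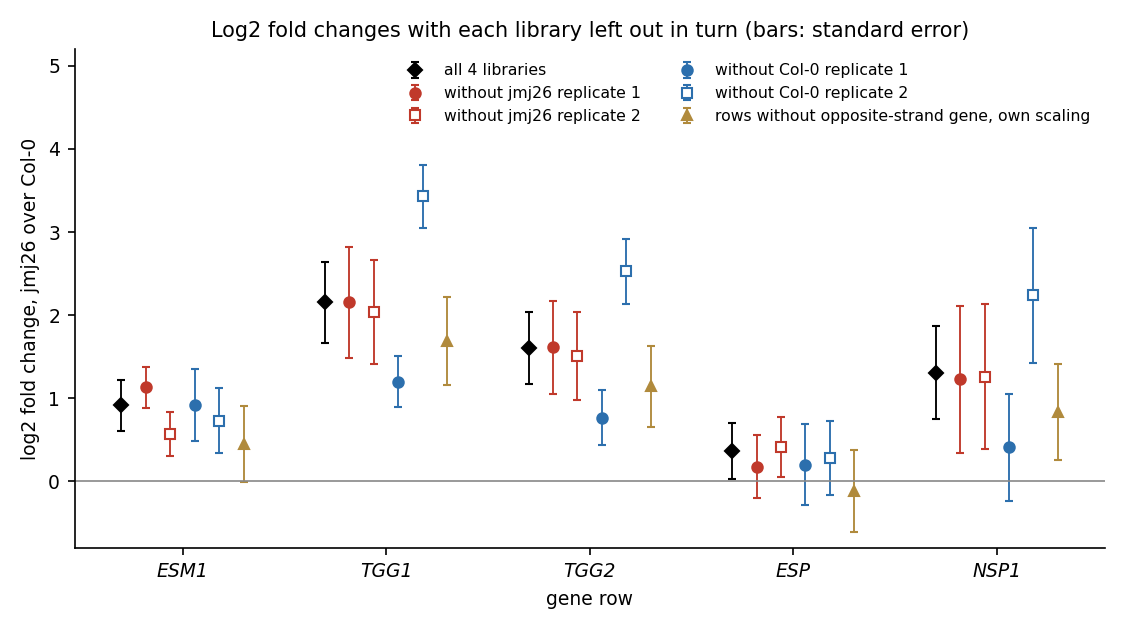
Fitted log2 fold change of *jmj26* over Col-0 for the 5 tested genes with all 4 libraries (black), with each library left out in turn (red and blue), and in the fit of rows without a gene on the opposite strand (ochre), with standard errors as bars. Leaving out Col-0 replicate 1 or 2 moved *TGG1* to 1.20 or 3.43, while *ESM1* ranged from 0.57 to 1.13 over the 4 left-out libraries.

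The rest of the glucosinolate pathway was described from a list of 63 genes for breakdown, synthesis, regulation and transport, 62 of which were analysed. Of these, 29 had 3 counts or fewer in every library and 15 passed the filter on low counts. In edgeR's quasi-likelihood test 0 of the 15 had FDR < 0.05 in either direction, and the smallest adjusted p was 0.109 (*CYP83A1*). DESeq2's Wald test also gave 0 with FDR < 0.05, and 1 at an unadjusted p below 0.05. In edgeR there were 9 of the 15 at an unadjusted p below 0.05. This was so for 821 of all 5232 rows and for 535 of the 1343 rows without an opposite gene. The 9 genes are those with both *jmj26* libraries but not both Col-0 libraries over the filter on low counts, so their direction is not read as a result. The 5 genes with both Col-0 libraries over it had a median log2 fold change of 0.16. All 5 (*GTR2*, *CYP81F1*, *BGLU23*, *MYC2* and *IMD1*) overlap a gene on the opposite strand, so their counts may be reads of that gene.

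The aliphatic synthesis list had 6 of 23 genes tested. *CYP83A1*, a cytochrome P450 that oxidises aldoximes derived from methionine, had 84 and 48 counts in *jmj26* and 5 and 11 in Col-0, a log2 fold change of 1.96 (standard error 0.45). *GSTU20*, a glutathione transferase of the same route, had 52 and 29 counts in *jmj26* and 1 and 9 in Col-0 (1.93, standard error 0.66). *IMD1*, an isopropylmalate dehydrogenase of methionine chain elongation, had 41 and 35 counts in *jmj26* and 13 and 17 in Col-0 (0.30, standard error 0.35). In *CYP83A1* and *GSTU20*, as in the myrosinases, Col-0 replicate 1 was the lowest library.

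Of the 13 other breakdown genes 3 were tested. *PEN2*, an atypical myrosinase that acts on indole glucosinolates in defence against fungi, had 35 and 24 counts in *jmj26* and 4 and 5 in Col-0. Its log2 fold change of 1.66 (standard error 0.41) had an adjusted p of 0.114 by edgeR's quasi-likelihood test. *BGLU23*, the β-glucosidase PYK10 of ER bodies, with which the *GLL22* protein forms complexes, had 150 and 126 counts in *jmj26* and 54 and 52 in Col-0 (0.34, standard error 0.22). Of 15 indole synthesis genes 4 were tested. *CYP81F1*, a cytochrome P450 that hydroxylates the indole ring, had 243 and 125 counts in *jmj26* and 130 and 93 in Col-0 (-0.33, standard error 0.21). Of 11 regulators and transporters 2 were tested. The transporter gene *GTR2* had 396 and 332 counts in *jmj26* and 215 and 114 in Col-0 (0.16, standard error 0.18), and the transcription factor gene *MYC2* had 112 and 65 in *jmj26* and 52 and 37 in Col-0 (-0.050, standard error 0.22).

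The 15 genes divided by their overlap on the other strand. The 8 without an opposite gene had a median log2 fold change of 1.67, but none of them had both Col-0 libraries over the filter, which bears on this value. Of the 7 with an opposite gene, *GSTF10*, a glutathione transferase, was at 1.22, and the other 6 lay between -0.33 (*CYP81F1*) and 0.34 (*BGLU23*). Over all tested rows the median was 0.61 without an opposite gene and -0.031 with one. Among rows with both Col-0 libraries over the filter, the median was -0.062 without an opposite gene and -0.061 over all rows. The part of the filter and of the overlap in the pathway's values was not tested.

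**Figure D4:**
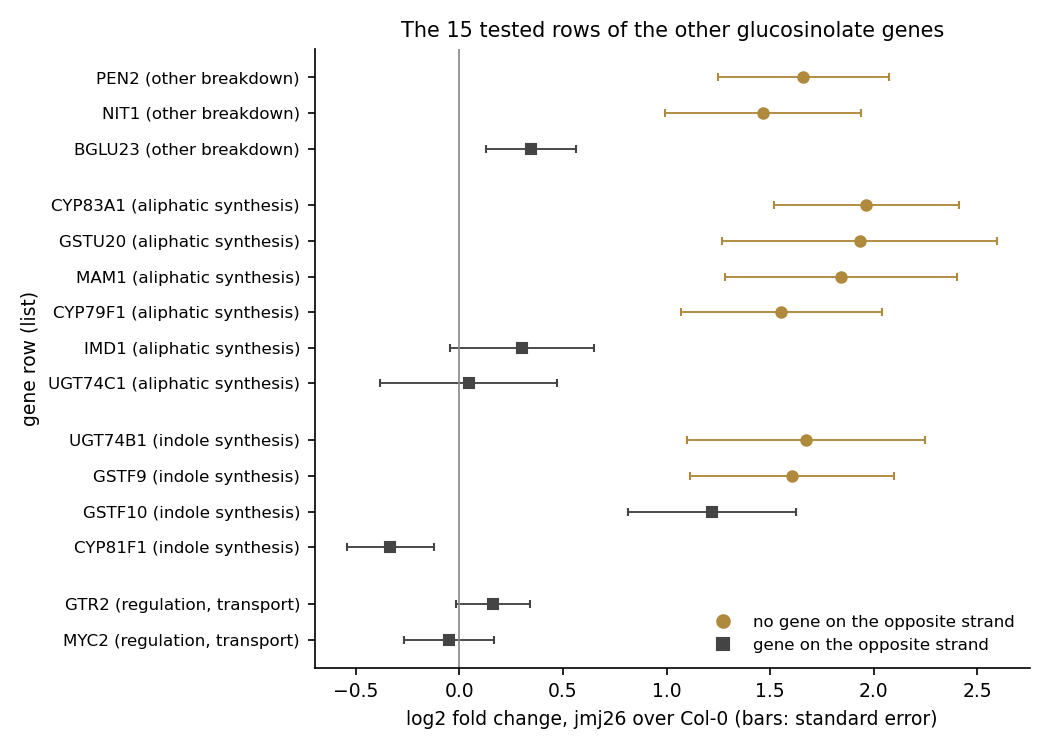
Fitted log2 fold change of *jmj26* over Col-0 with its standard error for the 15 tested genes of the other glucosinolate lists. Circles mark the 8 genes without a gene on the opposite strand, from *CYP83A1* at 1.96 downwards, and squares the 7 with one, which reach -0.33 in *CYP81F1*.

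The gene rows whose pattern was most like that of *ESM1* were sought among 3494 tested rows with a mean of at least 20 counts, by the Euclidean distance between mean-centred log2 CPM over the 4 libraries. The nearest was *NPQ4* (AT1G44575), which encodes the photoprotective photosystem II subunit PsbS, at a distance of 0.085, with 53 and 57 counts in *jmj26* and 17 and 11 in Col-0. *NYC1* (AT4G13250), a chlorophyll b reductase, followed at 0.15 with 94 and 93 counts in *jmj26* and 28 and 18 in Col-0. AT1G67870 came next at 0.15 with 79 and 97 counts in *jmj26* and 31 and 18 in Col-0. None of these 3 rows has a gene on the opposite strand. The other genes of the system were farther from *ESM1*, at 0.80 for *ESP*, 1.15 for *NSP1*, 1.52 for *TGG2* and 2.14 for *TGG1*. With 4 libraries many rows lie close to any pattern, and 518 rows were nearer to *ESM1* than *ESP* was.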

How the data were processed

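Read counts per gene row and per transposon copy were used as deposited, without normalization. Per its methods the study used fastp for trimming and STAR 2.7 with Araport11 for alignment. The counts used here name genes and transposons together and come from alignments of reads with multiple hits, which per the methods allowed up to 100 hits and were counted with TEcount, a route given there for transposons. For genes the methods name default alignment and featureCounts 2.0.1, and counts made that way were not used here. The labels call the molecule genomic DNA, whereas their protocol describes polyadenylated RNA. Genotype and replicate number were taken from the sample titles. Gene models and sequences were those of RefSeq's TAIR10.1, in which all 36632 gene identifiers were found and chromosome 1 has 30427671 bases. The counts carry no coordinates, and the 31189 transposon rows entered only 1 alternative.

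The model was edgeR 4.0.16 in R 4.3.3, on rows that pass filterByExpr and with TMM factors (glmQLFit with legacy = TRUE, then glmQLFTest). A standard error is the size of a log2 fold change over the square root of its F, except where DESeq2's own is named. The biological coefficient of variation was 16.6%. The procedure was tested on simulated counts. The total count per library bounds the precision, and 3 counts were taken as the floor. Coding sequences were aligned with Biopython 1.88, and intervals were computed with scipy 1.17.1. The genes and lists were chosen with earlier results of these data known. Pathway genes named are the 8 with the highest mean CPM, and other pathway genes named were chosen after their values were seen. The alternatives were other filters, scalings and rows fitted, DESeq2 1.42.0, the leaving out of each library, and a block for the replicate number. Fold changes and p-values that the authors list for genes were not used.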

Additional observations from a re-analysis of the deposited data

How the results depend on the processing

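The count of all gene rows with FDR < 0.05, 3 with all libraries, was 3 also with size factors from DESeq2 and with library totals as scaling. It was 592 without a filter on low counts, 0 with at least 10 counts in every library (215 at an unadjusted p below 0.05), 8 with DESeq2's Wald test, 64 with the replicate block, 1 with gene and transposon rows together and 1 in rows without a gene on the opposite strand. Leaving out each library in turn gave from 1 to 445, with 30 without Col-0 replicate 1, 445 without Col-0 replicate 2 and 1 without either *jmj26* library. The cause of these changes was not tested.

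Of the 10 genes of the system, 0 had FDR < 0.05 with all libraries. There were 2 without a filter (*TGG1* and *TGG2*), where 592 of 22317 gene rows were called and 531 of these were higher in *jmj26*. With the replicate block there was 1 (*TGG1*), where 64 of 5232 gene rows were called and 59 of these were higher in *jmj26*. Of the other pathway genes, 0 became 2 without a filter (*CYP83A1* and *GSTU20*), beside the same 592 of 22317 gene rows. Nothing is read from these counts of calls. The log2 fold change of *ESM1*, 0.91, was 0.45 in rows without a gene on the opposite strand and from 0.57 to 1.13 with a library left out. With at least 10 counts in every library no other gene of the 10 was tested. No row lies opposite to these genes, so no value could be given for such rows.

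Same-numbered libraries deviated from their genotype means with a correlation of -0.16 over gene rows, and the labels do not say what they share. With the numbers crossed, a pairing chosen after seeing the data, 152 of 5232 gene rows had FDR < 0.05, 141 of them higher in *jmj26*. Among them were 1 gene of the system and 1 other pathway gene.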
